A study of Mus musculus with 18 samples.

Results

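Chromatin remodelers and corepressor complexes were described through 44 genes coding for subunits of the SWI/SNF complexes, the CHD helicases, NuRD, the ISWI and INO80 complexes, ATRX, and the Sin3, CoREST and NCoR corepressors. The genes were chosen by name. All probe sets that the array's annotation gives to a single one of these symbols were taken, and the probe set with the highest mean signal stood for its gene. The array held 117 such probe sets for 43 of the 44 genes, out of 18193 genes in all, and Ncor1 was not analysed here. A gene was tested where its highest group mean reached a signal of 100, which held for 42 of the 43 genes and for 10575 genes in all.

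C57BL/6 mouse embryos at E15.5 gave the tissue, the ganglionic eminences, from which neurospheres were grown, dissociated and plated as a monolayer. Such cultures mix progenitors with their differentiating progeny. They were mock-treated (control), given BMP2 (a bone morphogenetic protein) at 10 ng/ml, or given 50 nM trichostatin A (TSA), an inhibitor of class I and II histone deacetylases (HDACs). RNA was hybridised to Affymetrix Mouse Genome 430 2.0 arrays after 6 h (2 control, 2 BMP2 and 2 TSA arrays) and 24 h (6 control, 2 BMP2 and 4 TSA arrays). Whether the arrays within a group stem from separate cultures is not stated in the labels, so the p-values reflect the variation from array to array, which may be technical.

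Remodelers are multi-subunit machines built around an ATPase that slides, ejects or exchanges nucleosomes. In the SWI/SNF (BAF) complexes, paralogous subunits are exchanged as neural progenitors become neurons, with Actl6a giving way to Actl6b and other partner pairs switching alongside. NuRD, Sin3 and CoREST carry HDAC1 and HDAC2, the enzymes that TSA inhibits, to chromatin.

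Signals are quantile-normalized, and every difference is given as log2(signal + 32), treated minus control of the same time, ± its standard error from 1 limma fit over the 18 arrays. The words rose and fell are used where the p-value, adjusted by Benjamini-Hochberg over all tested probe sets, was under 0.05. Since these are bulk cultures, fewer cells of a type and less RNA per cell cannot be told apart.

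Xist signal separated 4 arrays of the 24 h series, controls 5 and 6 and both BMP2 arrays (702 to 2079.9), from the other 14 (18.4 to 75.5). Comparisons with the 24 h controls were therefore repeated with controls 1 to 4 alone and with controls 5 and 6 alone, and calls that this ended are named. Markers of other cells moved with the treatments. The summed signal of 8 neuron markers was 8120.0 to 9238 in 6 h controls and 5028 to 5676 after 6 h of TSA, and 5809 to 8087 in 24 h controls and 3802 to 4458 after 24 h of TSA. Its members did not move together: after 24 h of TSA 4 fell, among them Dcx and Tubb3, and 2 rose, Stmn2 and Snap25, and after 6 h 3 fell and none rose. With BMP2 the neuron sum was 6669 to 7463 at 6 h, where no member passed, and 6581 to 7608 at 24 h, where 2 rose. The summed signal of the 8 oligodendrocyte lineage markers measured was 24981 to 31552 in 24 h controls, 14189 to 20493 after TSA and 11122 to 11828 after BMP2, and at 6 h it was 30196 to 31896 in controls and 21049 to 21173 after TSA. After 6 h of BMP2 the sum was 22582 to 24652. Of these 8 genes 4 fell after 6 h of TSA and 5 after 24 h, and with BMP2 1 fell after 6 h and 5 after 24 h. Astrocyte markers (7 genes) summed to 17796 to 20405 in 6 h controls and 12201 to 14498 after 6 h of TSA. At 24 h the sum was 16459 to 26076 in controls, 13281 to 14580.4 after BMP2 and 18830.3 to 27259 after TSA. The TSA range at 24 h overlapped its controls, but the members moved apart. Mean Gfap signal was 1683 in 24 h controls and 3973 after 24 h of TSA, and mean S100b signal was 1203 and 217. Of the 7 genes 3 fell after 6 h of TSA, 2 after 24 h of TSA and 4 after 24 h of BMP2, and none rose. Neural progenitor markers (6 genes) summed to 23501 to 23677 in 6 h controls and 21096 to 21999 after 6 h of TSA. Of these 6 genes 3 fell after 6 h of TSA, and after 24 h 1 fell and 2 rose. Of 3 cycling markers none passed after 6 h of TSA and 1 fell after 24 h. The part of these cell types in the results below was not tested. Microglia markers were near background, with a summed signal of at most 77.8 over 5 genes and none of the 5 bright enough to test.

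After 6 h of TSA, 13 of the 42 tested subunit genes fell and 2 rose, against 11.9% falling and 14.5% rising among all tested genes. SWI/SNF held 10 of the 13, with 1 of its 17 genes rising. The median difference of the 17 genes was -0.78, and that of all tested genes 0.02. In the CHD family 2 of 8 genes fell, in the ISWI, INO80 and ATRX group 1 of 7 fell, and of the 3 corepressor genes measured 1 rose. The NuRD ATPases Chd3 and Chd4 are counted with the CHD family, and none of the other 7 NuRD genes passed the test at this time. An unadjusted limma p under 0.05 was reached by 2 of the 7 (share of all tested genes not counted).

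**Figure D1:**
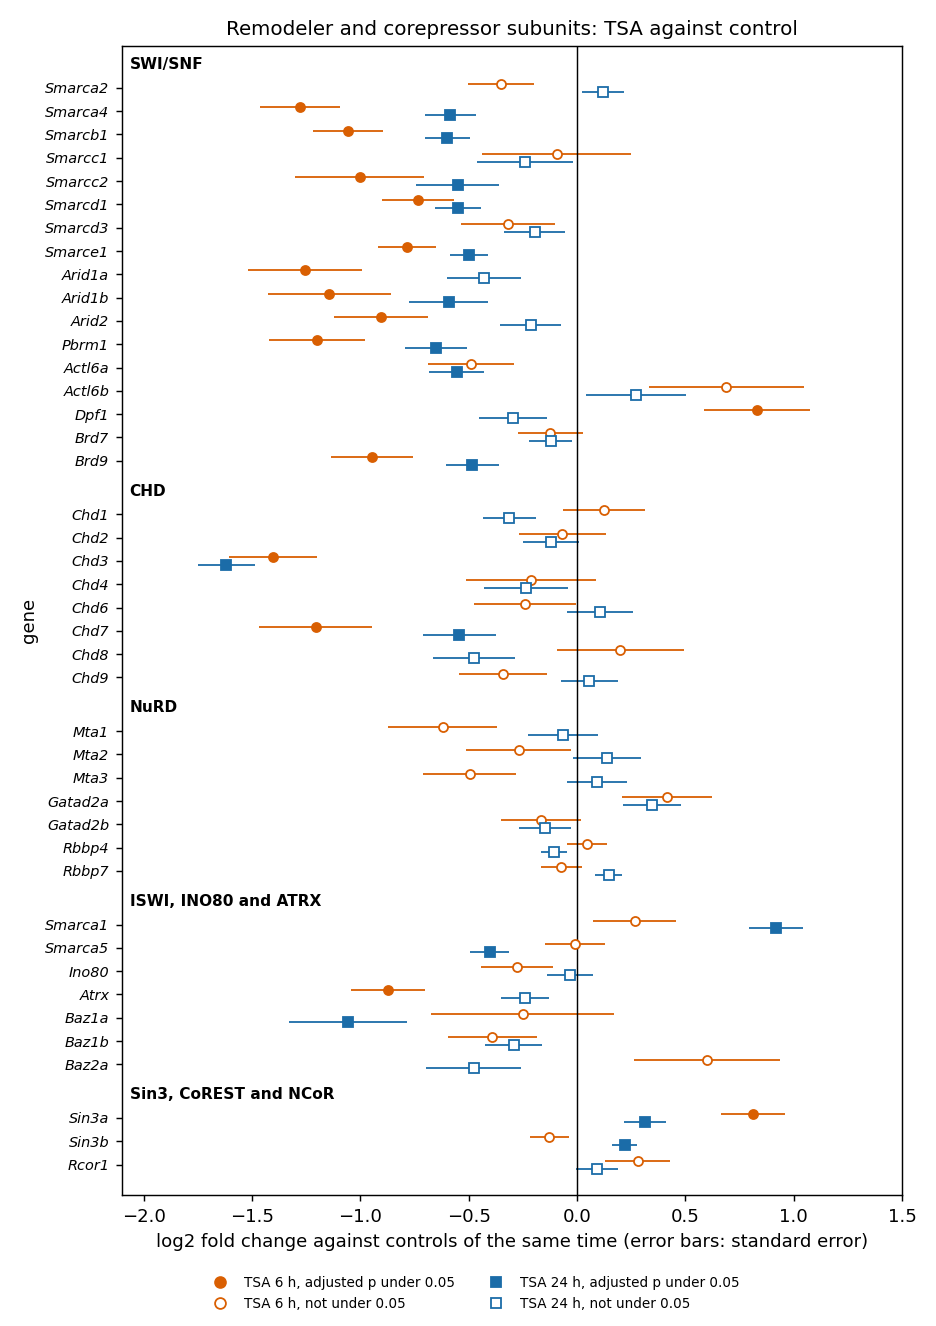
Difference of each tested subunit gene between TSA and control cultures on the log2 scale, at 6 h (circles) and 24 h (squares), with standard errors, where filled symbols have an adjusted p under 0.05. Filled symbols left of 0 crowd into the SWI/SNF block (10 genes at 6 h and 9 at 24 h), and the NuRD block, which leaves out the ATPases Chd3 and Chd4, holds open symbols throughout.

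Smarca4, which codes for BRG1, one of the alternative ATPases of SWI/SNF, gave 2140.0 and 1802 on the 6 h control arrays and 813 and 768 with TSA. Signal thus lay far below both controls on both TSA arrays, a difference of -1.28 ± 0.18, adjusted p = 0.000244. The alternative ATPase Smarca2 (BRM) gave 966 and 1050.5 in controls and 783 and 784 with TSA, and its difference of -0.35 ± 0.15 did not pass the test (adjusted p = 0.114).

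Smarcb1 (SNF5), a core subunit of the canonical complexes, gave 1180.4 and 1142 in 6 h controls and 567 and 517 with TSA (-1.06 ± 0.16, adjusted p = 0.000332). A second probe set of Smarcb1 gave -1.20. Smarce1 (BAF57), which carries an HMG domain, gave 2303 and 2344 in controls and 1369 and 1303 with TSA (-0.78 ± 0.14, adjusted p = 0.000837). Neither gene had overlapping arrays between the groups, a state reached in the falling direction by 35.9% of all tested genes in this comparison of 2 with 2 arrays.

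Among scaffold subunits, Smarcc2 (BAF170) fell from 1187 and 1017 in controls to 578 and 489.6 (-1.003 ± 0.30, adjusted p = 0.0242). Its paralog Smarcc1 (BAF155) gave 829.8 and 751 in controls and 715 and 761 with TSA, a difference of -0.09 ± 0.34 (adjusted p = 0.883). A second bright set of Smarcc1 was lower with TSA, at 1124 and 950 in controls and 829 and 753 with TSA. Smarcd1 (BAF60A) fell by 0.73 on the log2 scale (adjusted p = 0.00503), and for its paralog Smarcd3 (BAF60C) the difference of -0.32 ± 0.22 did not pass. By the brightest probe sets, in both paralog pairs 1 gene passed the test and the other did not. The difference within each pair was not tested, because the signals of separate probe sets are not on a common scale.

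The DNA-binding ARID subunits, which set the identity of each SWI/SNF assembly, all fell at 6 h. Arid1a, of the canonical BAF complex, gave 1231 and 1012 in controls and 527 and 383 with TSA (-1.25 ± 0.26, adjusted p = 0.00317), and its second probe set gave -1.28. Arid1b, the alternative to Arid1a, gave 614 and 589 in controls and 248 and 262 with TSA (-1.14 ± 0.29, adjusted p = 0.0094). Arid2, of the polybromo-containing PBAF complex, gave 1005 and 898 in controls and 516 and 469 with TSA (-0.91 ± 0.22, adjusted p = 0.00764). All 3 tested probe sets of Arid2 fell, by 0.91, 1.13 and 0.89.

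Pbrm1, the multi-bromodomain reader of PBAF, gave 1258 and 1192 in 6 h controls and 538 and 494 with TSA (-1.20 ± 0.22, adjusted p = 0.00142). Brd9, a bromodomain subunit of the non-canonical complex, gave 669 and 604 in controls and 373 and 264 with TSA (-0.95 ± 0.19, adjusted p = 0.00216). Brd7, the bromodomain subunit of PBAF, stayed close to its controls, at 745 and 819 without and 732 and 699 with TSA (-0.12 ± 0.15, 95% interval -0.44 to 0.20).

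The subunits exchanged between progenitors and neurons did not move together. Actl6a, the progenitor form of the actin-related subunit, gave 1090.1 and 945 in 6 h controls and 795 and 641 with TSA, a difference of -0.49 ± 0.20 that did not pass (adjusted p = 0.0879), although its second probe set did (-0.62). Actl6b, the neuronal form, was dim and reached a mean of 100 after 6 h of TSA only, at 52.1 and 55.8 in controls and 94.9 and 119 with TSA (0.69 ± 0.36, adjusted p = 0.191). Dpf1, a PHD-finger subunit of neuronal BAF, rose from 244 and 196 to 454 and 377 (0.83 ± 0.25, adjusted p = 0.0237) and was the only SWI/SNF gene whose brightest probe set rose in any of the 4 comparisons of a treatment with its controls. Dpf3, another of these PHD-finger subunits, stayed under the signal of 100 in every group and was not tested, with 42.6 and 31.9 in 6 h controls, 73.5 and 52 after 6 h of TSA and 96.4, 42.3, 77.4 and 93.1 after 24 h.

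**Figure D2:**
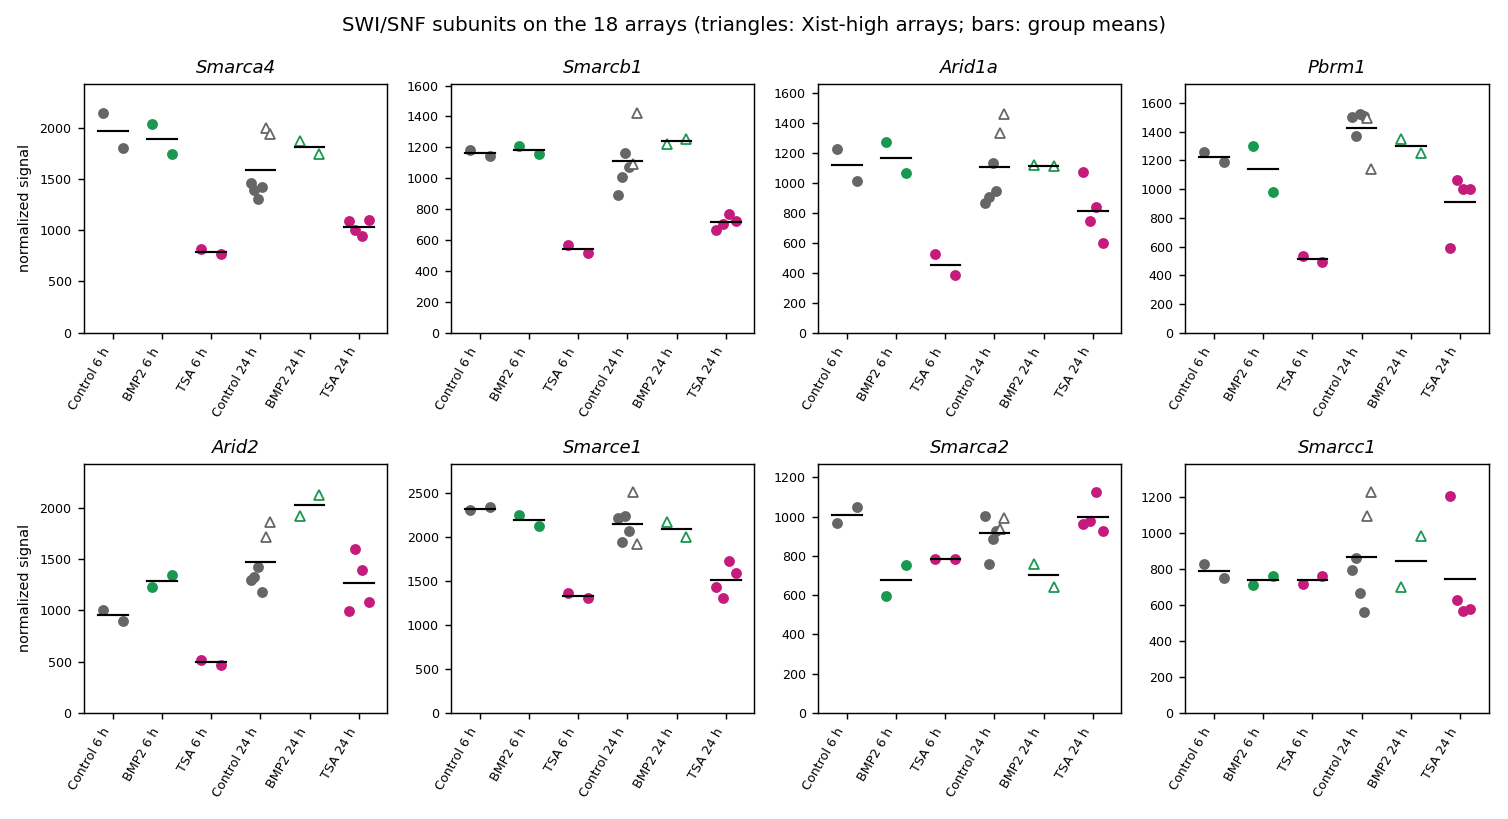
Normalized signal of 8 SWI/SNF subunits on each of the 18 arrays, by treatment and time, with group means as bars, an axis starting at 0 for each gene, and open triangles for the 4 arrays with high Xist signal. Smarca4, Smarcb1, Arid1a, Pbrm1, Arid2 and Smarce1 have both 6 h TSA arrays far below both controls. Those of Smarcc1, on the brightest set drawn here, lie at 715 and 761 beside controls of 751 and 829.8.

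The calls at 6 h rest on 2 arrays a group. With TSA array 2 left out 9 genes were called in place of 15, and Smarcc2, Arid1b and Dpf1 missed the threshold whichever of the 4 arrays was left out. Smarcd1, Arid1a and Arid2 missed it without TSA array 2, and Arid2 also without control 1. All these fits leave out pairing. With same-numbered 6 h arrays as a block, 26 genes fell and 7 rose, so some genes given above as not passing depend on that choice. The share of all tested genes called with that block was not counted. By the study's own criteria (a ratio over 2, a difference over 100 and an unadjusted p under 0.1), 8 subunit genes fell and none rose, namely Smarca4, Smarcb1, Smarcc2, Arid1a, Arid1b, Pbrm1, Chd3 and Chd7, against 11% of all tested genes called in either direction.

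After 24 h of TSA, 13 of the 42 genes fell and 3 rose, against 20.1% falling and 18.7% rising among all tested genes, and the share of subunit genes called (38.1%) was close to that of all tested genes. With arrays scaled to a common median instead of quantiles, 20 fell and 1 rose (share of all tested genes not counted). SWI/SNF still held 9 of the 13 that fell, at a median difference of -0.48 over its 17 genes (all tested genes, -0.02). Smarca4 gave 1087, 1006, 943 and 1098 with TSA, below 24 h controls that ran from 1303 to 1999.9 with a median of 1438 (-0.58 ± 0.12, adjusted p = 0.00134). Smarcb1 gave 665, 703, 769 and 725 with TSA, and its controls ran from 891 to 1421 with a median of 1086 (-0.60 ± 0.10, adjusted p = 0.000362). For both, the highest TSA array lay below the lowest control, as it did for 11.6% of all tested genes.

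Smarce1 (-0.50), Smarcd1 (-0.55), Pbrm1 (-0.65), Brd9 (-0.48), Smarcc2 (-0.55) and Arid1b (-0.59) were also lower after 24 h, with adjusted p from 0.000406 to 0.0358. Actl6a joined them, with 578, 603, 693 and 689.8 after TSA and controls from 667 to 1098 with a median of 1011 (-0.55 ± 0.13, adjusted p = 0.00319). Arid1a (-0.43 ± 0.17, adjusted p = 0.0597) and Arid2 (-0.21 ± 0.14, adjusted p = 0.255) no longer passed. Arid2 signal after 24 h of TSA was 995, 1598, 1399 and 1084, which overlapped its controls, from 1179.5 to 1867 with a median of 1378, with 2 of the 4 TSA arrays below the lowest control. Smarca2, Smarcc1, Smarcd3, Actl6b, Dpf1 and Brd7 did not pass either, at differences from -0.30 (Dpf1) to 0.27 (Actl6b).

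Replicate numbers paired the 24 h TSA arrays with controls 1 to 4, and with these pairs as a block the differences were smaller for Arid1b (-0.33, adjusted p = 0.0813) and Chd7 (-0.33, adjusted p = 0.0568), which lost their calls. Smarcc2 and Chd7 also lost theirs against controls 1 to 4 alone. Arid1b and Sin3a missed the threshold without TSA array 4, Chd7 without TSA array 2 or 4, and Smarcc2 without TSA array 3 or any of controls 1, 2, 5 and 6. Against controls 5 and 6 alone, the 2 with high Xist signal, 24 genes fell and 2 rose (share of all tested genes not counted). Smarca4 then differed by -0.91, in place of -0.42 against controls 1 to 4. Pbrm1 (-0.54, adjusted p = 0.0568), Actl6a (-0.37, adjusted p = 0.0924), Sin3a (0.25, adjusted p = 0.127) and Sin3b (0.19, adjusted p = 0.0705) did not pass against controls 5 and 6 alone. By the study's criteria 3 genes were called at 24 h (8.81% of all tested genes), with Chd3 and Baz1a down and Smarca1 up.

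Promoter sequence was set beside these expression values for 35 of the 43 genes, those with an entry in the RefSeq table used (mouse build GRCm38.p6, 250 bases before to 50 after the start). The GC box GGGCGG, searched on both strands, was found in 34 of the 35 (97.1%), in 67.7% of the 8644 promoters of tested genes and in 35.9% of all 27025 promoters. The TATA box TATAAA was in 1 of the 35 (2.86%) and in 6.46% of the promoters of tested genes. Median GC content was 65.7% in the subunit genes and 61.7% in tested genes, with a median of 30 and 22 CpG dinucleotides. Promoters of a pair of subunits that fell at both times, Smarca4 (chr9:21615919-21616218, plus strand) and Smarcb1 (chr10:75921565-75921864, minus strand), are shown with those of 2 genes that rose with TSA, Smarca1 (chrX:47892564-47892863, minus strand) and Sin3a (chr9:57071790-57072089, plus strand, the first of 2 listed starts), 5′ to 3′ on the gene's strand, with GC boxes of either orientation in capitals. A match is a description of these letters only.
Smarca4: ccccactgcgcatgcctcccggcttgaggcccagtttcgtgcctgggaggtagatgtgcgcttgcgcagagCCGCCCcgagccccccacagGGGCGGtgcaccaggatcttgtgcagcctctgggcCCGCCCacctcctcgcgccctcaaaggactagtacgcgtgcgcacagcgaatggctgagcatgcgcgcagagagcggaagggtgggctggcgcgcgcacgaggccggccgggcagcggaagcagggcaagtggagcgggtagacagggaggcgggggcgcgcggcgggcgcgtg
Smarcb1: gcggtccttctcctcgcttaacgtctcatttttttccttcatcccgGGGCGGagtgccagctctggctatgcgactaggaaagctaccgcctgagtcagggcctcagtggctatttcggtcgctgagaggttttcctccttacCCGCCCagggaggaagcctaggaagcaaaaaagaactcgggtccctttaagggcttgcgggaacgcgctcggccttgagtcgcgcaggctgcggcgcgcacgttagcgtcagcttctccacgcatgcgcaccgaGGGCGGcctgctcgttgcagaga
Smarca1: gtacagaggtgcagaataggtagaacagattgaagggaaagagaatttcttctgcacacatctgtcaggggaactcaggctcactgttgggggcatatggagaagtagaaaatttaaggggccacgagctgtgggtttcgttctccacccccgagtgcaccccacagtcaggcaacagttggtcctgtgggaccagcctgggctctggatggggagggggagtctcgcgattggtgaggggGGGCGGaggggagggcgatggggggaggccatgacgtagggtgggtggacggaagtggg
Sin3a: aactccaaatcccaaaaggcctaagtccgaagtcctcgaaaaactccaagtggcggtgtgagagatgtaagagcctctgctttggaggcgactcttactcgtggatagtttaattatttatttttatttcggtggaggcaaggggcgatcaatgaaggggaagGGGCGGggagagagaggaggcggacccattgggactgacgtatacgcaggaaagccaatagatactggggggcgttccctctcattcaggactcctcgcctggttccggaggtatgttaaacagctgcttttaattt
The 4 windows hold 3 (Smarca4), 3 (Smarcb1), 1 (Smarca1) and 1 (Sin3a) GC boxes. With a GC box in 34 of the 35 promoters, its presence could not separate genes that fell from genes that rose.

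Chd3, a chromodomain helicase and ATPase of NuRD in postmitotic neurons, showed the largest fall of the 42 genes at both times. Its signal was 531 and 506 in 6 h controls and 176 and 177 with TSA (-1.40 ± 0.20, adjusted p = 0.000254). After 24 h it was 125, 106, 82 and 70.8 with TSA, and controls ran from 297 to 416 with a median of 372 (-1.62 ± 0.13, adjusted p = 3.96e-07). All TSA arrays lay below all controls of their time. Its paralog Chd4, the ATPase of NuRD in progenitors, gave 515 and 479.5 in 6 h controls and 444 and 407 with TSA (-0.21 ± 0.30, adjusted p = 0.678), and -0.24 ± 0.19 (adjusted p = 0.363) after 24 h.

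Chd7, mutated in CHARGE syndrome and active in oligodendrocyte and neuronal differentiation, gave 799 and 706 in 6 h controls and 332 and 284 with TSA (-1.21 ± 0.26, adjusted p = 0.00384). After 24 h of TSA it gave 426, 383, 488 and 382, with controls from 389.8 to 873 with a median of 601 (-0.54 ± 0.17, adjusted p = 0.0199, lost under the pairing above). The arrays overlapped at 24 h, where control 2 lay at the level of the TSA arrays. A second, dimmer probe set of Chd7 did not pass at either time (-0.67 and -0.59). Chd8, an autism-associated helicase of the same subfamily, differed by 0.20 ± 0.29 at 6 h and -0.48 ± 0.19 at 24 h (adjusted p = 0.0602).

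The remaining CHD genes did not pass with TSA at either time. Chd1, a helicase that binds the methylated histone H3 tail at active genes, differed by 0.12 ± 0.19 at 6 h and -0.31 ± 0.12 at 24 h, and 1 of its 3 dimmer probe sets passed the other way at 24 h (0.63). Differences of Chd2, Chd6 and Chd9 ran from -0.34 (Chd9, 6 h) to 0.11 (Chd6, 24 h).

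Apart from Chd3, which fell at both times and is counted with the CHD family above, no NuRD gene passed against its controls with TSA at either time. For the 7 that are not helicases the median difference was -0.16 at 6 h and 0.09 at 24 h. The histone-binding WD40 proteins Rbbp4 and Rbbp7, which are shared with other complexes, had narrow intervals. Rbbp4 gave 4043 and 3967 in 6 h controls and 4273 and 3999.8 with TSA (0.05 ± 0.09, 95% interval -0.15 to 0.24). Rbbp7 gave 2281 and 2068 in 6 h controls and 2091 and 2039 with TSA (-0.07 ± 0.10, 95% interval -0.27 to 0.13), so that a change as large as that of Smarca4 lies outside both intervals.

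The metastasis-associated proteins, which hold the HDACs within NuRD, gave differences at 6 h of TSA of -0.62 ± 0.25 (Mta1, adjusted p = 0.091), -0.27 ± 0.24 (Mta2) and -0.50 ± 0.21 (Mta3, adjusted p = 0.11). A second probe set of Mta3 gave -0.48 at 6 h and 0.50 at 24 h. Mta3 was dim, with a mean of at least 100 in the BMP2 24 h group only, through which alone it was tested. Of the GATA zinc-finger subunits, Gatad2a was at 1311 and 1237 in 6 h controls and 1685 and 1731 with TSA (0.41 ± 0.21, adjusted p = 0.171), and 1 of its dimmer probe sets passed at 6 h (0.66). Gatad2b differed by -0.16 ± 0.18 at 6 h and -0.15 ± 0.12 at 24 h.

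The ISWI ATPases parted at 24 h. Smarca1 (SNF2L), the ATPase found largely in neurons, gave 415, 404, 604 and 557 with TSA, and its controls ran from 210.2 to 286 with a median of 243 (0.92 ± 0.12, adjusted p = 3.9e-05), with all 4 TSA arrays above all controls, as for 11.8% of all tested genes. Smarca5 (SNF2H), the ATPase of proliferating cells, gave 1468, 1545, 1503 and 1229.7 with TSA, lower than controls that ran from 1609.5 to 2197 with a median of 1938 (-0.40 ± 0.09, adjusted p = 0.00249). The other 2 bright probe sets of Smarca5 gave -0.19 and 0.05 and did not pass. At 6 h the differences were 0.27 ± 0.19 for Smarca1 and -0.01 ± 0.14 for Smarca5.

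Baz1a (ACF1), an accessory subunit that partners Smarca5, gave 269, 214, 199 and 139 after 24 h of TSA (-1.06 ± 0.27, adjusted p = 0.00683). Its controls ran from 303 to 1009 with a median of 379.5, with the highest values on controls 5 and 6 (604 and 1009), and the difference from controls 1 to 4 alone was -0.68. A second probe set of Baz1a also fell (-0.66). Baz1b (WSTF, of the Williams syndrome interval) and Baz2a (TIP5, which acts at ribosomal DNA) did not pass at either time. Baz2a differed by 0.60 ± 0.34 at 6 h and -0.48 ± 0.22 at 24 h, with adjusted p of 0.228 and 0.0999.

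Atrx, an ATPase that deposits histone H3.3 at heterochromatin, gave 2043 and 1822 in 6 h controls and 1142 and 946 with TSA (-0.87 ± 0.17, adjusted p = 0.00212). A second probe set of Atrx gave -0.96. After 24 h of TSA its signal was 1834, 1469, 1386 and 1612 and controls ran from 1500.4 to 2207 with a median of 1848 (-0.24 ± 0.11, adjusted p = 0.107). Ino80, the ATPase of the INO80 complex, differed by -0.28 ± 0.17 at 6 h and -0.03 ± 0.11 at 24 h.

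Sin3a, the scaffold of the Sin3 complex that holds HDAC1 and HDAC2, rose with TSA. It gave 378 and 317 in 6 h controls and 641 and 622 with TSA (0.81 ± 0.15, adjusted p = 0.00126), and its other 2 probe sets gave 0.80 and 0.98. After 24 h it gave 339, 323, 378 and 403, above controls that ran from 246 to 307 with a median of 291 (0.31 ± 0.10, adjusted p = 0.0183), with adjusted p = 0.0569 where the paired arrays were a block (0.35). The call at 24 h was also lost with median scaling, in a fit of only the groups compared, against controls 5 and 6 alone and with the mean of its probe sets. All TSA arrays of Sin3a lay above all controls of their time.

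Sin3b, the second Sin3 scaffold, differed by -0.13 ± 0.09 at 6 h and rose slightly at 24 h, at 2036, 1959.7, 2236 and 2119 with TSA and from 1664 to 1879 with a median of 1807 in controls (0.22 ± 0.06, adjusted p = 0.00812). The probe sets of Sin3b disagreed, as a second bright set rose (0.31), another gave 0.05, and a dim one with a mean signal of 205 fell (-0.67). Averaged over them, the difference was -0.02. The call was lost with median scaling and against controls 5 and 6 alone. Rcor1, the CoREST scaffold that couples the demethylase KDM1A to HDACs, did not pass at either time (0.28 ± 0.15 and 0.09 ± 0.10).

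**Figure D3:**
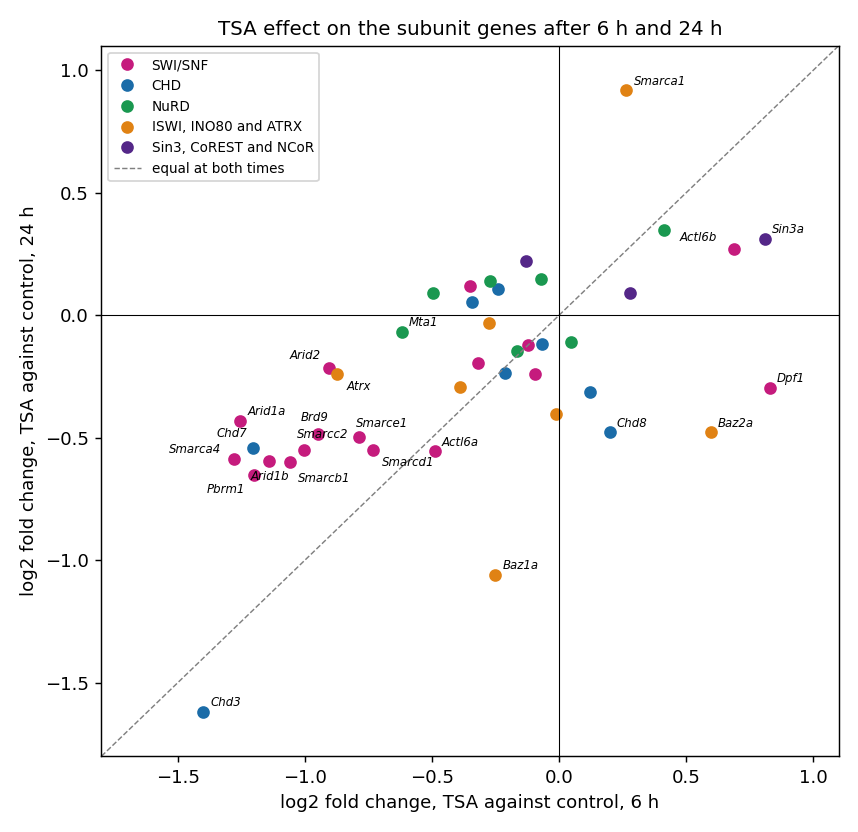
Difference between TSA and control cultures at 6 h (horizontal) and at 24 h (vertical), both on the log2 scale, for the 42 tested subunit genes coloured by complex, with a dashed line of equal effect. Most SWI/SNF genes lie to the left of 0 and above the dashed line, Chd3 lies furthest down at -1.40 and -1.62, and Dpf1 and Baz2a sit right of 0 at 6 h and below it at 24 h.

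Across both times of TSA, 10 genes fell at 6 h and at 24 h, 3 fell only at 6 h by the threshold (Arid1a, Arid2 and Atrx) and 3 only at 24 h (Actl6a, Smarca5 and Baz1a). Sin3a passed upward at both times, Dpf1 at 6 h, and Smarca1 and Sin3b at 24 h, and 22 genes passed at neither. The change of the effect between the times was itself tested. It passed for 1 of the 42 genes, Dpf1 (-1.13 ± 0.29, adjusted p = 0.0245), against 11.6% of all tested genes. An unadjusted limma p under 0.05 was reached by 14 of the 42, with the share of all tested genes not counted. For Dpf1 the 24 h TSA arrays gave 150.0, 84.9, 122 and 89 and controls ran from 112 to 185 with a median of 133, which overlapped. The call on Dpf1 was lost where either 6 h control or either 6 h TSA array was left out.

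The change between the times was also tested with a term for high Xist signal in the fit, or with controls 1 to 4 alone. It then passed for 10 genes (share of all tested genes not counted). These 2 settings give the same difference, since only the 24 h controls hold both Xist states, and are 1 check. For 9 of these it was upward from 6 h to 24 h, among them Smarca4 (0.86), Arid1a (1.00), Arid2 (0.84), Arid1b (0.81), Smarcb1 (0.55), Chd7 (0.87) and Atrx (0.71). For Smarca4 the change over all controls was 0.70 ± 0.22 (adjusted p = 0.0565). Dpf1 passed downward (-0.98). With controls 5 and 6 alone 6 genes passed, most of them downward (share of all tested genes not counted). Mta2 went up (0.84), and Dpf1 (-1.43), Chd1 (-0.71), Chd8 (-1.24), Baz1a (-1.56) and Baz2a (-1.59) went down. Of the genes named above for controls 1 to 4, only Dpf1 was among them, downward in both.

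Few of these genes passed the test with BMP2, and at 6 h few of all tested genes did. After 6 h, 1 of 42 fell and none rose, against 0.652% falling and 1.16% rising among all tested genes. An unadjusted limma p under 0.05 was reached by 3 of the 42 (share of all tested genes not counted). The gene that fell was Chd7, at 334 and 338 with BMP2 and 799 and 706 in controls (-1.09 ± 0.26, adjusted p = 0.0491), with both treated arrays below both controls, as for 22.9% of all tested genes. The call was lost when any 1 of the 4 arrays was left out, with an adjusted p of up to 0.417. Next in order of p-value was Smarca2, which gave 596 and 753 with BMP2 and 966 and 1050.5 in controls (-0.56 ± 0.15, adjusted p = 0.098). Arid2, lower after TSA at this time, gave 1225 and 1349 with BMP2 and 1005 and 898 in controls (0.42 ± 0.22, adjusted p = 0.919). The SWI/SNF median was -0.04, near that of all tested genes (-0.01).

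**Figure D4:**
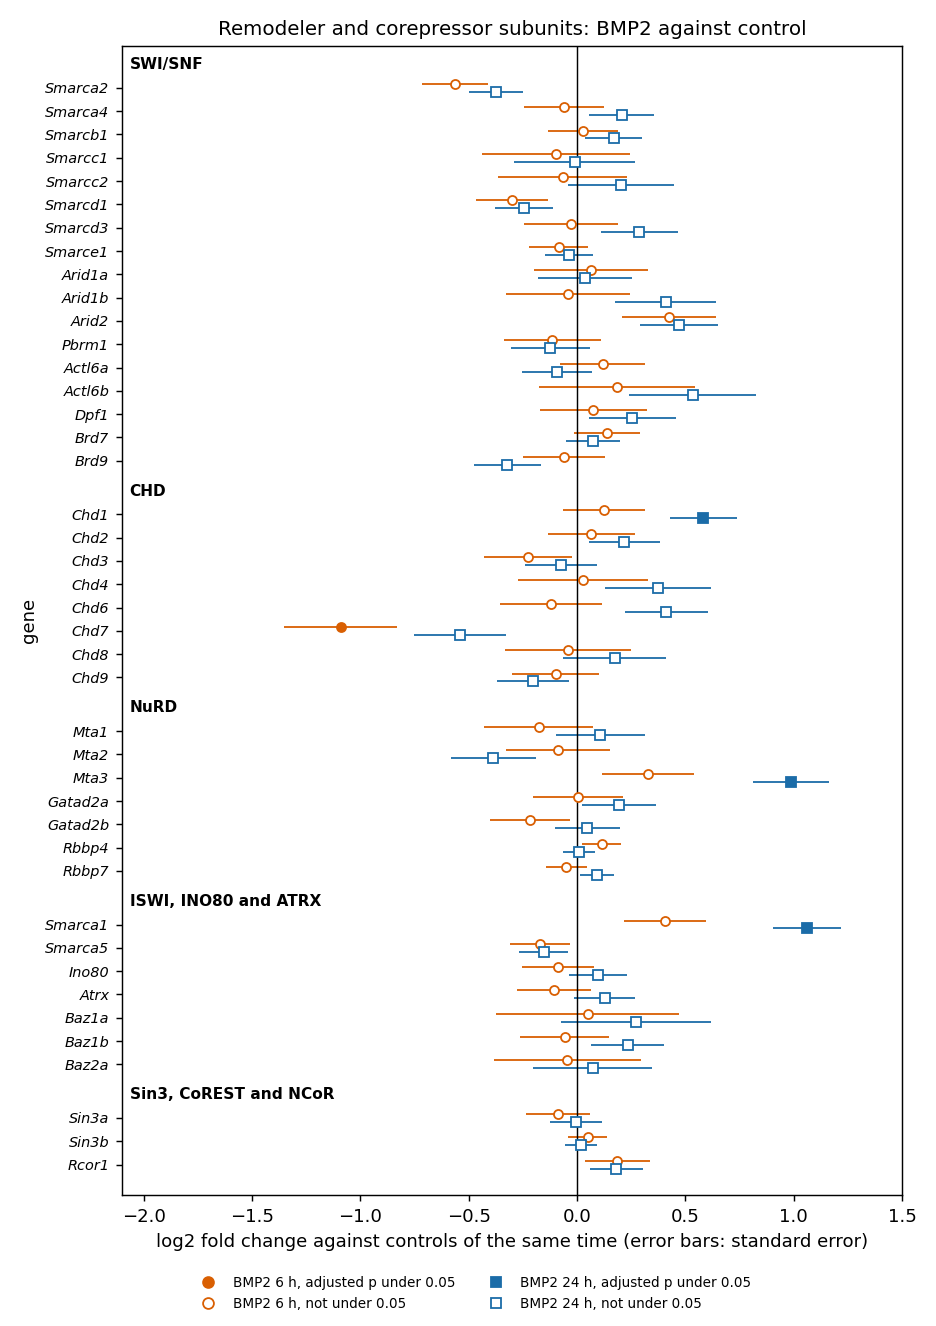
Difference of each tested subunit gene between BMP2 and control cultures on the log2 scale, at 6 h (circles) and 24 h (squares), with standard errors, drawn on the axis used for TSA. Filled symbols (adjusted p under 0.05) mark Chd7 at 6 h and Chd1, Mta3 and Smarca1 at 24 h.

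After 24 h of BMP2, 3 of 42 genes rose and none fell, against 9.94% rising and 7.76% falling among all tested genes. Smarca1 gave 505 and 581 with BMP2 and controls ran from 210.2 to 286 with a median of 243 (1.06 ± 0.16, adjusted p = 0.00019). Mta3 gave 164 and 225 with BMP2 and controls ran from 62.1 to 122 with a median of 76.9 (a difference of 0.99 ± 0.17), and its other 2 probe sets gave 0.49 and 1.28. Since Mta3 reached the mean of 100 needed for testing in the BMP2 24 h group only, it had to differ there, and its call is a description. Chd1 gave 348 and 384 with BMP2, and its controls ran from 199 to 318 with a median of 217 (0.58 ± 0.15, adjusted p = 0.0169). On both BMP2 arrays all 3 genes lay above all 6 controls, as did 17.4% of all tested genes.

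Both BMP2 arrays of 24 h and controls 5 and 6 had high Xist signal, so these 3 results were also set against controls 5 and 6 alone. Smarca1 then differed by 1.12 (adjusted p = 0.00235) and Mta3 by 0.69, whereas Chd1 did not pass (0.31, adjusted p = 0.308). The call on Chd1 against all 6 controls was also lost without either BMP2 array, and without control 2 or control 6 there were 5 calls in place of 3. Chd7, which gave 454 and 386 with BMP2, differed by -0.54 ± 0.21 (adjusted p = 0.0958) from all 6 controls and by -0.96 (adjusted p = 0.00154) from controls 5 and 6, at 873 and 813. Against controls 1 to 4 alone, 11 genes rose and 1, Mta2, fell (share of all tested genes not counted).

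No SWI/SNF gene passed with BMP2 at 24 h, with a median of 0.07 over the 17 genes. Arid2 gave 1925 and 2126 with BMP2, above all of its controls (0.47 ± 0.18, adjusted p = 0.0828), and the difference from controls 5 and 6 alone was 0.17. Smarca2 gave 757 and 644, below all controls, which ran from 759 to 1001 with a median of 932 (-0.37 ± 0.12, adjusted p = 0.0516). A second, dimmer set of Smarca2, with a mean under 100 in both groups, passed downward (-0.52), as did a second set of Arid1a (-0.67), the third of Smarca5 (-0.73) and the dimmest tested set of Sin3a (-0.54), where the brightest set of each did not. A dimmer set of Brd7 passed upward (0.56). By limma, no gene passed the test of a change of the BMP2 effect between the times, against 0.794% of all tested genes. An unadjusted limma p under 0.05 was reached by 2 genes (share of all tested genes not counted). By the study's criteria Chd7 was called downward at 6 h (2.44% of all tested genes in either direction) and Smarca1 and Mta3 upward at 24 h (7.89%).

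**Figure D5:**
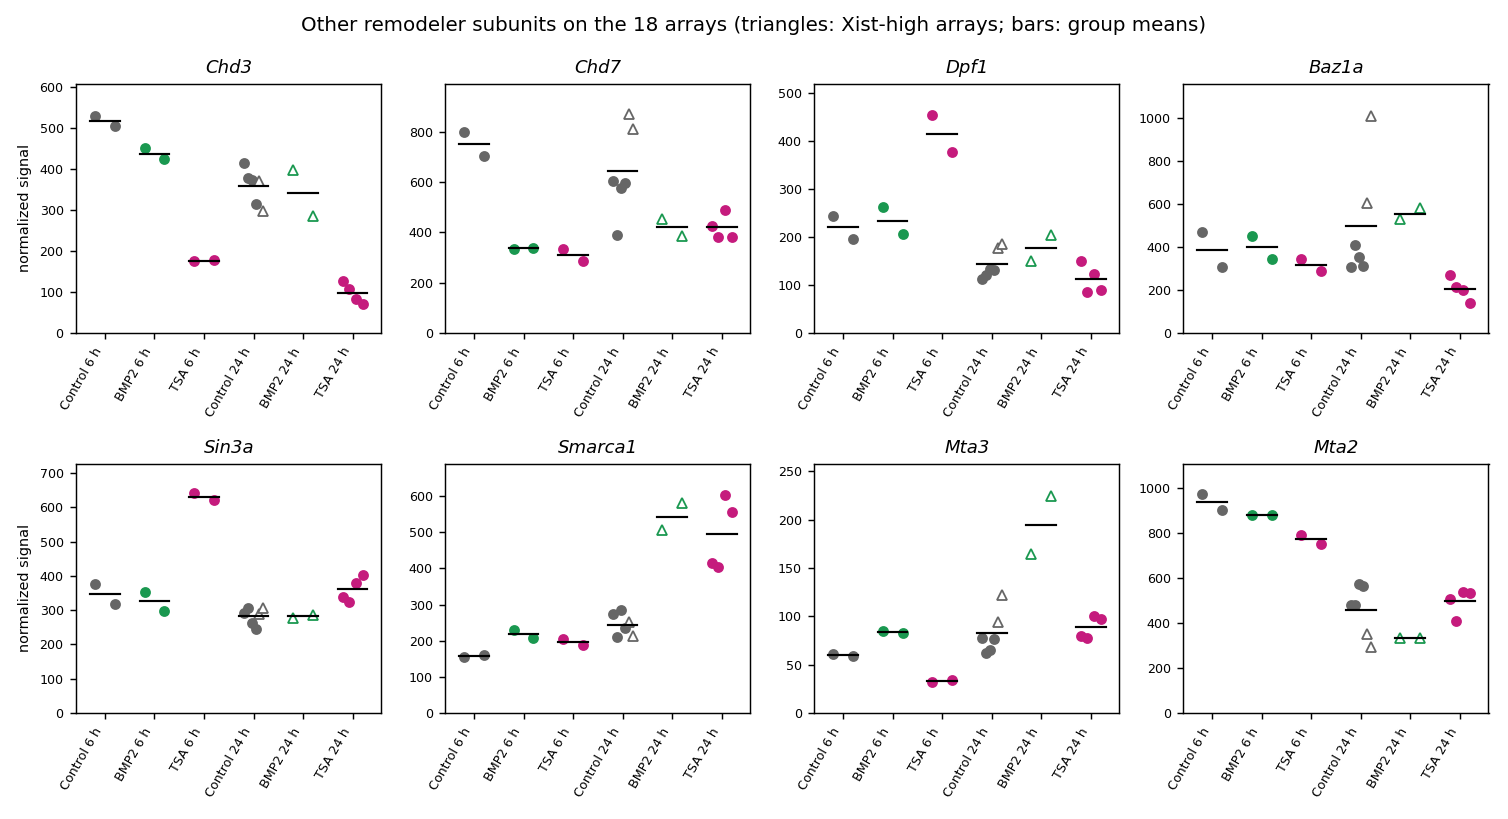
Normalized signal of 8 further subunits on each of the 18 arrays, with group means as bars, an axis starting at 0 for each gene, and open triangles for the 4 arrays with high Xist signal. Chd3 is lowest on the TSA arrays at both times, Sin3a is highest on the 6 h TSA arrays, Smarca1 is high on the 24 h arrays of both treatments, and Mta2 is lower on every 24 h array than on any 6 h array.

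Set directly against BMP2 at 6 h, TSA gave lower signals for 13 genes and higher for 2, with 12.5% lower and 15.5% higher among all tested genes. The 10 SWI/SNF genes lower with TSA were led by Smarca4 (-1.22 ± 0.18, adjusted p = 0.000251), Smarcb1 (-1.08 ± 0.16, adjusted p = 0.00021) and Arid2 (-1.33 ± 0.22, adjusted p = 0.000464). Sin3a (0.90) and Dpf1 (0.75) were higher. Chd7, lower than in controls with either agent, did not differ detectably between them at 6 h (-0.12 ± 0.26, 95% interval -0.67 to 0.44). Mta3, counted among the 13, had a mean under 100 in both groups, and its call was lost whichever of the 4 arrays was left out. Without TSA array 2 there were 8 calls in place of 15.

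At 24 h, 13 genes were lower and 1 was higher with TSA than with BMP2, against 21.2% and 17.3% of all tested genes (11 lower and 3 higher with the signals as deposited). Mta3, counted among these 13, was tested only through its BMP2 24 h mean, which favours a lower value with TSA. Its call here is a description. Chd3 (-1.55 ± 0.18, adjusted p = 1.2e-05), Smarcb1 (-0.77 ± 0.14, adjusted p = 0.00062) and Chd1 (-0.90 ± 0.16, adjusted p = 0.00071) led the lower ones, and Smarca2 was the higher one (0.49 ± 0.13, adjusted p = 0.00877). The call on Chd1 was lost with the mean of its probe sets. A dimmer set of Chd1 was higher with TSA (160, 153, 185 and 195) than with BMP2 (135 and 127). Smarca1 was raised by both agents and differed between them by -0.14 ± 0.16 (95% interval -0.49 to 0.21). Only the BMP2 side of this comparison has high Xist signal. With a term for that signal 3 genes passed, Chd3 (-1.69), Actl6a (-0.74) and Smarca2 (0.61). Without BMP2 array 1 there were 8 calls, and without BMP2 array 2 there were 6.

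Controls changed with time in culture as well. From 6 h to 24 h, 3 of 42 genes fell and none rose, against 2.54% falling and 1.83% rising among all tested genes. Mta2 ran from 975 and 905 in 6 h controls to values from 292 to 573 with a median of 482 (-1.02 ± 0.20, adjusted p = 0.0117), lowest on the arrays of high Xist signal (354 and 292). Gatad2a fell from 1311 and 1237 to values from 575 to 765 with a median of 672 (-0.90 ± 0.17, adjusted p = 0.0108), and Ino80 from 1001 and 851 to values from 482 to 650.0 with a median of 569 (-0.67 ± 0.14, adjusted p = 0.0148). On the brightest probe sets, no 24 h control of these 3 genes reached the level of a 6 h control. That held for 8 of the 42 tested subunit genes, and 6 had every 24 h control above both 6 h controls. The share of all tested genes was not counted. Mta2, Gatad2a and Ino80 passed in the same direction with controls 1 to 4 alone (-0.80, -0.86 and -0.68). They also passed with controls 5 and 6 alone (-1.46, -0.97 and -0.64). None did when either 6 h control was left out. A second bright set of Gatad2a gave 995 and 948 in 6 h controls, and 949 and 1164 on 24 h controls 5 and 6. The call on Gatad2a was lost with the mean of its probe sets.

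Further subunits of the same complexes, 66 names of which 60 were tested, were counted in the same way. After 6 h of TSA, 19 fell and 7 rose (all tested genes, 11.9% and 14.5%), at a median of -0.19. The 4 with the smallest p-values among those that fell were Cdk2ap1, a small NuRD subunit (-1.46 ± 0.12, adjusted p = 2.95e-06), the remodeler Chd1l (-1.51 ± 0.17, adjusted p = 4.55e-05), the INO80 subunit Mcrs1 (-1.42 ± 0.18, adjusted p = 9.41e-05) and the SWI/SNF subunit Bcl7b (-1.33 ± 0.18, adjusted p = 0.00014). Those that rose were led by the deacetylase Hdac1 itself (0.87 ± 0.14, adjusted p = 0.000622), the INO80-associated deubiquitinase Uchl5 (1.05), the histone-fold protein Pole3 (0.88) and the actin-related Actr6 (0.93).

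At 24 h of TSA, 20 of the 60 fell and 3 rose (all tested genes, 20.1% and 18.7%), at a median of -0.21, led by the SWI/SNF subunits Bcl7a (-1.15 ± 0.14, adjusted p = 1.32e-05) and Ss18 (-0.57 ± 0.07, adjusted p = 1.67e-05), the Sin3 subunit Arid4b (-0.57) and Bcl7b (-0.60). Those that rose were the neuronal helicase Chd5 (0.48), Ino80b (0.52) and Mbd2 (0.33). With BMP2, 1 of the 60 fell at 6 h (all tested genes, 0.652%), the CoREST paralog Rcor2 of neural progenitors (-1.36 ± 0.17, adjusted p = 0.000467). At 24 h of BMP2, 4 rose and 3 fell (all tested genes, 9.94% and 7.76%), led by Chd5 (0.50 ± 0.14, adjusted p = 0.0241) and Bcl7c (0.81) upward and by Rcor2 (-0.68 ± 0.14, adjusted p = 0.00375) and Smarcd2 (-0.71) downward.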

How the data were processed

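Probe-set signals of 18 Affymetrix Mouse Genome 430 2.0 arrays were analysed as deposited, as intensity on a linear scale. The labels name MAS5, and the study's methods name dChip with quantile normalization. Array medians of the deposited intensity ran from 35.4 to 41.6. Here, 64 control probe sets were left out, arrays were quantile-normalized, and log2(signal + 32) was fitted with limma 3.58.1 in R 4.3.3 (6 treatment-by-time groups, no covariate, eBayes with trend). Probe sets entered where any group's mean reached 100 (19440 of 45101), with Benjamini-Hochberg adjustment over them and a threshold of 0.05. Quantile normalization makes every difference relative to the array as a whole, and the number of arrays limits the precision.

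The platform annotation gives 1 gene symbol for 34958 probe sets, several for 932 and none for 9211. The members and gene lists were chosen with earlier results of these data known. Genes are named with values where they have the smallest adjusted p in a comparison (up to 8 in each direction with a treatment, 4 otherwise), where they belong to a paralog pair, or where their probe sets disagree. The fit was tested on simulated data with known changes. Residuals of same-numbered 24 h TSA and control arrays correlated at 0.41, 0.57, 0.44 and 0.28, so these numbers were taken as pairs, although TSA array 4 correlated slightly more with control 5 (0.29). Alternatives covered normalization, offset, filter, arrays in the fit, replicate block, Xist signal, probe sets per gene and leaving out each array. Shares of all tested genes were counted for the main fit and the study's criteria, not for the other alternatives or for unadjusted p-values.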

Additional observations from a re-analysis of the deposited data

Results flagged for a closer look

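Within groups of 4 or 6 arrays, the outlying array's gap to its nearest neighbour, as a share of the group's range on the log2(signal + 32) scale, passed Dixon's 95% critical value for 7 of the 84 gene-by-group sets tested, where chance gives about 1 in 20. On TSA 24 h array 1, Smarcc1 lay high at 1204, with the other arrays at 565 to 628 (share 0.861), and Pbrm1 lay low at 589, with the others at 998 to 1064 (0.891). On TSA 24 h array 3, Smarcc2 was low at 356 against 583 to 626 (0.872), Baz1b low at 561 against 673 to 686 (0.906), and Mta1 high at 763 against 572 to 582 (0.937). On 24 h control 6, Pbrm1 was low at 1142 against 1372 to 1526 (0.633), and Actl6a low at 667 against 928 to 1098 (0.661). The fall of Pbrm1 and Actl6a after 24 h of TSA passed whichever array was left out but not against controls 5 and 6 alone (-0.54 and -0.37), and that of Smarcc2 was lost without TSA array 3.

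The effect of TSA on Dpf1 differed between 6 h and 24 h by a test of the difference itself (change of -1.13 on the log2 scale), from 0.83 ± 0.25 at 6 h to -0.30 ± 0.16 at 24 h.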

How the results depend on the processing

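Counts of subunit genes called are given here for settings that moved them by over 1.5 times. Apart from the study's criteria, the share of all tested genes was not counted under these settings. BMP2 6 h had 0 calls with the deposited signals, median scaling, no filter, no trend or the mean of a gene's probe sets. BMP2 24 h had 12 with controls 1 to 4 and 5 with the mean of probe sets. TSA 6 h had 24 in a fit of only the groups compared and 8 under the study's criteria. TSA 24 h had 26 against controls 5 and 6 and 3 under the study's criteria. TSA against BMP2 at 24 h had 3 with a term for Xist signal. The change of the BMP2 effect with time had 1 with controls 1 to 4. The change of the TSA effect had 2 with median scaling, 0 without a filter, 2 with a group mean of 200, 10 with the Xist term, 10 with controls 1 to 4, 6 with controls 5 and 6 (1 up and 5 down, where controls 1 to 4 gave 9 up and 1 down) and 7 with the mean of probe sets. Controls over time had 0 in a fit of only those groups, 9 with the Xist term, 9 with controls 1 to 4 and 8 with controls 5 and 6. The cause was not tested. For TSA and for controls over time, the Xist term and controls 1 to 4 alone give the same differences and are 1 check.

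With the replicate block over all arrays there were 15 calls for BMP2 24 h, 26 for TSA against BMP2 24 h, 7 and 15 for the changes of the BMP2 and TSA effects, and 12 for controls. The 6 h arrays also share a replicate number (2 pairs in each comparison, residual correlations 0.57 to 0.71). The labels do not state pairs, and the main fit left them out at both times. With that number as a block there were 5 calls for BMP2 6 h, 33 for TSA 6 h and 29 for TSA against BMP2 6 h. At 24 h of TSA, pairing left 13 calls and changed none but those of Arid1b, Chd7 and Sin3a.

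Leaving out each array gave 0 to 0 calls for BMP2 6 h, 2 to 5 for BMP2 24 h, 9 to 12 for TSA 6 h, 13 to 20 for TSA 24 h, 8 to 10 and 6 to 16 for TSA against BMP2 at 6 h and 24 h, 0 to 0 and 0 to 4 for the changes of the BMP2 and TSA effects, and 0 to 4 for controls. For the TSA effect, the 4 came without 24 h control 5 and the 0 without any 1 of the 6 h control or TSA arrays. Of the alternative values of single called genes, 1125 kept direction and call, 141 kept only the direction, and 2 reversed, both with the mean of probe sets. These were Sin3b at TSA 24 h (-0.0232) and Baz1b for TSA against BMP2 24 h (0.2695).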
